A study of Mus musculus with 9 samples.

Results

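Cholesterol and fatty acids are built from the same acetyl-CoA pool by 2 sets of enzymes, and the 32 genes described here cover both in mouse prostate. They were taken by name from a list: 17 genes of the sterol arm, 4 regulators of both arms, and 11 genes of the fatty acid arm. The list was searched in a deposited table of 54532 genes, where all 32 were found. All 32 also passed the filter on low counts, which kept 16836 genes for testing.

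The tissue was whole prostate from mice that differed in Srd5a2, which encodes the enzyme (type II 5-alpha-reductase) that makes dihydrotestosterone from testosterone. The 3 genotypes were wild type (WT), heterozygous (Srd5a2+/-, Het) and null (Srd5a2-/-, KO), each with 3 bulk RNA-seq libraries. The heterozygous sires had been mated to WT C57BL6 dams, and null males came from the third generation of that breeding. The labels name no tissue-specific driver of the deletion. No source used here gives the age or the lobes dissected. Nothing in the labels says that the libraries came from separate animals, so the p-values measure the spread between these libraries, which may be technical. Libraries are numbered in accession order, and the numbers pair nothing across genotypes. Both mutant genotypes were compared with the same 3 WT libraries, and the third comparison set KO against Het.

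In the sterol arm, acetyl-CoA is condensed to mevalonate, then to farnesyl and squalene units, and squalene is closed into a ring and trimmed to cholesterol. In the fatty acid arm, acetyl-CoA is carboxylated to malonyl-CoA and extended by fatty acid synthase, after which elongases and desaturases shape the product. Both arms answer to SREBP transcription factors, which SCAP carries to the Golgi for cleavage when sterols are low and INSIG proteins hold back when sterols are plentiful. In the prostate, lipid synthesis is known as an androgen-responsive function of the secretory epithelium.

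SREBPs bind sterol response elements, usually near sites for the CCAAT-binding factor NF-Y and for Sp1, so the stretch of 250 bases before the start site was searched in each gene for which RefSeq gave one (25 of 32, RefSeq promoters on GRCm38.p6). The letters searched on both strands were TCACNCCAC for the sterol element, CCAAT, and GGGCGG for the Sp1-type GC box. Matches of different motifs did not overlap each other in any of the 25 windows. CCAAT was present in 12 of 13 sterol-arm windows, in 3 of 4 regulator windows and in 3 of 8 fatty acid windows, against 35.2% of 20451 promoters of the same length. GGGCGG was present in 12 of 13, 2 of 4 and 4 of 8 windows, against 39.5% of all promoters. The sterol element was found in Hmgcs1 alone, and in 1.06% of all promoters. A match describes letters, and its absence says only that these exact letters are not in the window. The windows of Acaca, Acacb and Tm7sf2 lay more than 1000 bases from the gene start in the deposited table. Windows of 6 genes are shown as examples of the range, each 5′ to 3′ on the gene's own strand with matched motifs in capitals.

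Hmgcs1, the sterol-arm entry enzyme, is shown because its window (chr13:119690101-119690350, plus strand) held all 3 motifs, with the sterol element beginning 137 bases before the start site.
Hmgcs1: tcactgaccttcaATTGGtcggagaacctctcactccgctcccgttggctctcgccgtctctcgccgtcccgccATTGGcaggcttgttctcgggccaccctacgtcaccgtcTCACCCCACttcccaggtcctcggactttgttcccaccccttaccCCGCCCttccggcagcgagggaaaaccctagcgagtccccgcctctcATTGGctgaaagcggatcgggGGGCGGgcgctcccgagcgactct
Ebp (chrX:8193513-8193762, minus strand) and Mvd (chr8:122443423-122443672, minus strand) show CCAAT and GGGCGG without the sterol letters, the usual pair among the sterol-arm windows.
Ebp: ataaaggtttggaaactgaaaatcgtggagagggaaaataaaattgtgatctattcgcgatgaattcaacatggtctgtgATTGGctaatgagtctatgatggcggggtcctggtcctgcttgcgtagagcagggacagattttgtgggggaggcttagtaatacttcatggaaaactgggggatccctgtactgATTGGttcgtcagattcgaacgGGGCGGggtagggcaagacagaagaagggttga
Mvd: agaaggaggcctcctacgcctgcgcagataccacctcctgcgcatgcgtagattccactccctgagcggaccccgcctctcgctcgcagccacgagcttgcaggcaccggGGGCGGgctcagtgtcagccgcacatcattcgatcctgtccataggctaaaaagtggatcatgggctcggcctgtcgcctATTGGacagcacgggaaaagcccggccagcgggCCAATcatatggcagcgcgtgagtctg
Srebf1 (chr11:60222582-60222831, minus strand) is shown as the gene of an SREBP itself, and its window held a single CCAAT.
Srebf1: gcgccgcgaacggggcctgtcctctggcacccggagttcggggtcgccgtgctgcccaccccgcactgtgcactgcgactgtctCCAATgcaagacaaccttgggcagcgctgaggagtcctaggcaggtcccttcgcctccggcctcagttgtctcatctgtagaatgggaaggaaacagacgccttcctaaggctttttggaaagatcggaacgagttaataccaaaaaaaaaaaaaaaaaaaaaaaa
Acly (chr11:100528001-100528250, minus strand) and Fasn (chr11:120824548-120824797, minus strand), the steadiest fatty acid genes here, differed in kind: Acly had GGGCGG matches and no CCAAT, and Fasn had CCAAT on both strands, with a pair of matches overlapping each other, and no GGGCGG.
Acly: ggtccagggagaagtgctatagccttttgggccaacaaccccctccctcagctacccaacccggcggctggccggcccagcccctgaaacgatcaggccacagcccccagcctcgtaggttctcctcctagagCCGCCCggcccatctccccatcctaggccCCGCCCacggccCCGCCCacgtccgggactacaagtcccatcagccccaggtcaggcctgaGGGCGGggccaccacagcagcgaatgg
Fasn: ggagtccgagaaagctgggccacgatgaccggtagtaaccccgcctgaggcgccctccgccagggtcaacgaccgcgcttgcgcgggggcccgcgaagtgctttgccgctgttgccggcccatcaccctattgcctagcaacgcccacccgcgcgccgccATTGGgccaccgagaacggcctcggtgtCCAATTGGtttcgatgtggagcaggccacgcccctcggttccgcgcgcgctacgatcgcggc

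Depth was similar across libraries, from 16233392 to 24017791 counts, and every pair of libraries differed beyond sampling noise (lowest chi-square per degree of freedom 42.4). Srd5a2 itself had 43 to 170 counts in the WT and Het libraries and 9 to 22 in the KO libraries. Prostate luminal markers were present throughout, but WT 1, WT 3 and Het 2 stood apart: the luminal secretory gene Sbp was at 0.994, 16.02 and 7.26 CPM there and at 34370 to 144000 CPM in the other 6 libraries. CPM here means counts per 1000000 of a library total scaled by the TMM method. Seminal vesicle markers summed to 28360 to 206300 CPM in WT, 6003 to 333200 in Het and 90770 to 184600 in KO. Svs2 and Svs5 dominate these sums, and the other genes of the list ranked the libraries differently. In Het 2, which had the highest sum, Svs6 was at 77.1 CPM, against 3285 to 4498 CPM in KO. In KO against Het, 5 of the 7 genes had every KO library above every Het library (7.8% of all genes), and 2 had log2 fold changes below 0. Results that WT 1, WT 3 and Het 2 could carry are given with and without them. Leaving them out leaves WT 2 as the sole WT library, which is then assumed to vary like the other groups.

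Mean levels in the deposited FPKM values placed 4 desaturases and Acly of the fatty acid arm, with Srebf1 and Srebf2, above the sterol-arm enzymes. The means of Fads1 and Srebf2 lay close to those of Ebp and Fdft1. FPKM divides by a length deposited for each gene, from 1508 bases for Fads2 to 17074 for Acaca. The order of genes thus rests partly on these lengths. Scd2, a stearoyl-CoA desaturase that puts the first double bond into saturated fatty acids, was highest of all at a mean of 144 FPKM over the 9 libraries. Its paralog Scd1 averaged 42.2 FPKM. Fads2 and Fads1, the desaturases of polyunsaturated fatty acid synthesis, averaged 46.0 and 19.8 FPKM, with 173.3 and 62.8 FPKM in Het 3. Elsewhere Fads2 was at 2.73 to 52.9 FPKM and Fads1 at 3.29 to 21.3. Fads1 was below the sterol-arm gene Ebp in WT 1, WT 2, Het 1 and KO 1, and above it in the other libraries. Acly, which makes cytosolic acetyl-CoA from citrate, averaged 29.9 FPKM and Fasn, the fatty acid synthase, 17.2 FPKM. The remaining fatty acid genes were lower: Me1, a source of NADPH, at 6.97 FPKM, the elongase Elovl6 at 4.48, the acetyl-CoA carboxylases Acacb and Acaca at 4.44 and 1.58, and the acetyl-CoA synthetase Acss2 at 1.94. Among the regulators Srebf1 averaged 28.3 FPKM, Srebf2 20.1, Scap 14.2 and Insig1 13.9.

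In the sterol arm Ebp, a sterol isomerase, and Fdft1, the squalene synthase that commits farnesyl units to sterols, led at 19.0 and 18.9 FPKM. Mvd, which makes isopentenyl diphosphate, followed at 12.5 FPKM. A middle group held the demethylase Cyp51 at 9.19 FPKM, the mevalonate-branch enzymes Pmvk at 9.06, Hmgcs1 at 8.92 and Mvk at 7.95, and the desaturase Sc5d at 8.85. Msmo1, a sterol methyl oxidase, was at 6.59 FPKM, the squalene epoxidase Sqle at 6.56, Tm7sf2 at 5.38 and Nsdhl at 4.44. Dhcr7, which makes cholesterol from its immediate precursor, was at 3.85 FPKM, the sterol carrier Stard4 at 3.69, the squalene cyclase Lss at 2.48 and the isomerase Idi1 at 1.91. Neighbours in this order, such as Fdft1 and Ebp, overlapped across libraries (14.8 to 27.0 and 11.2 to 25.6 FPKM). Fdps, the farnesyl diphosphate synthase that sits between Idi1 and Fdft1, was listed at 0.299 FPKM from only 226 counts in all 9 libraries. Its exons overlap those of Gm43738, a gene with 0 counts, over 1124 bases, and no source used here says how shared reads were counted, so the level of Fdps is uncertain.

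**Figure D1:**
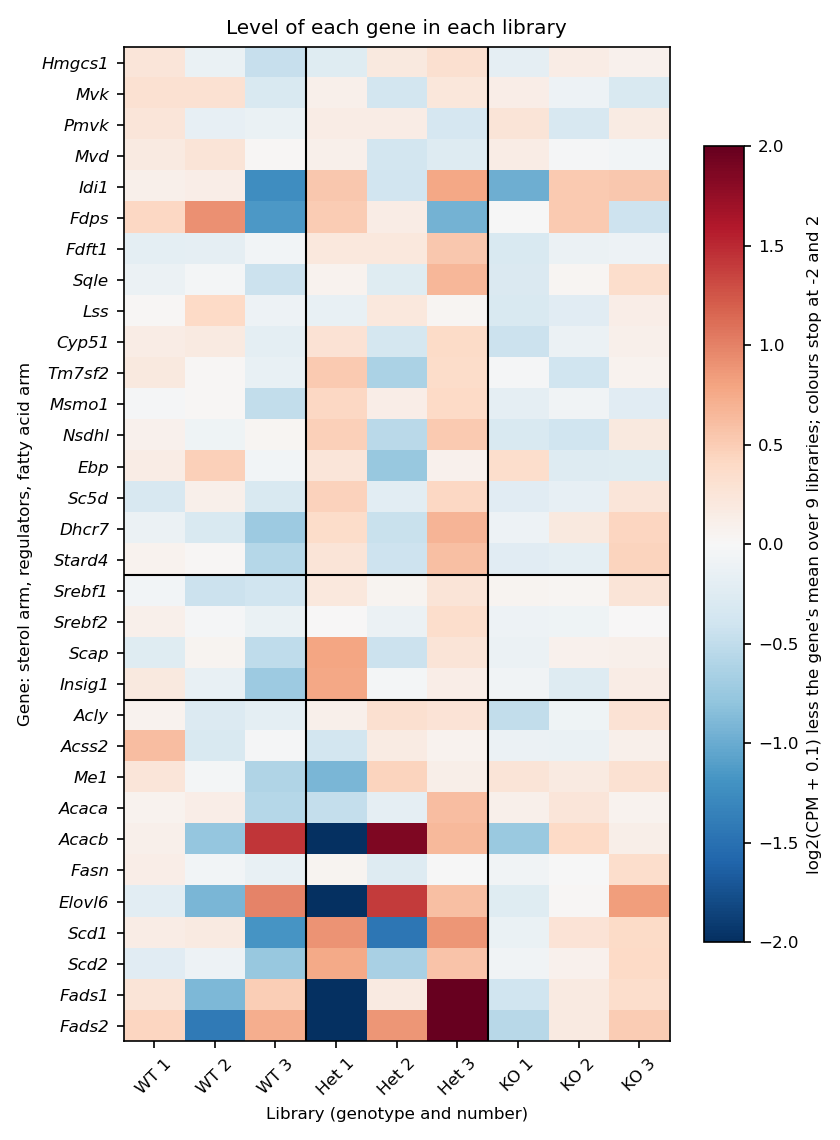
Colour gives log2(CPM + 0.1) of the 32 genes (vertical axis, by arm) in each of the 9 libraries (horizontal axis), less the mean of the gene, with colours stopped at 2 log2 units either side. Het 1 is darkest blue for Fads2, Fads1, Acacb and Elovl6, while sterol-arm genes other than Idi1 and Fdps vary little.

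No gene passed at an adjusted p under 0.05 in any of the 3 comparisons, the 32 included, by edgeR's quasi-likelihood test with Benjamini-Hochberg adjustment over all 16836 genes. The share called among all genes was 0% for KO against WT, 0% for Het against WT and 0% for KO against Het. DESeq2 on the same counts called 14, 205 and 169 genes, and 0 of the 32 in each. At an unadjusted p under 0.05 in the edgeR fit, 1 of the 32 stood out in KO against WT (3.57% of all genes). There were 3 in Het against WT (9.04%) and 2 in KO against Het (6.22%), shares close to or little above those of all genes. These counts depended on the setting. In the same order they were 2, 13 and 12 with limma voom and quality weights, and 3, 10 and 8 without Het 2. The shares of all genes under those settings are not given here. In bulk tissue fewer cells of a type and less RNA per cell cannot be told apart, which holds for every level below.

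No sterol-arm gene passed the test in KO against WT, which does not show equal levels. The median log2 fold change of the 17 genes was -0.03, beside 0.01 for all genes tested, and 7 of 17 lay above 0. That median was 0.03 without WT 2 and -0.16 without WT 3. Across the 32 genes, 18 lay above 0, as did 50.6% of all genes. The precision was enough to bound many of them within 1 log2 unit of no difference on either side. That held for the 95% intervals of 22 of 32, against 45.7% of all genes, and 14 of these 22 were in the sterol arm. The sterol-arm intervals of Dhcr7, Idi1 and Fdps reached further, up to 1.22, 1.59 and 1.62, and that of Fdps down to -2.06. Fatty acid genes had a median of 0.11, with 8 of 11 above 0. That median was -0.15 without KO 3, so its sign rested on 1 library. Without WT 1, WT 3 and Het 2, 20 of 32 genes lay above 0, and the medians were -0.12 in the sterol arm and 0.27 in the fatty acid arm.

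Het prostates had higher mean levels than WT for most of the list, none of which passed the test. In Het against WT, 25 of 32 genes lay above 0 (50% of all genes): 12 of 17 in the sterol arm with a median log2 fold change of 0.20, 4 of 4 regulators with a median of 0.48, and 9 of 11 in the fatty acid arm with a median of 0.36. All genes tested had a median of -0.00. Without WT 1, WT 3 and Het 2, 26 of 32 lay above 0 and the sterol and fatty acid medians were 0.33 and 0.53. Both medians moved with single libraries: the sterol median was 0.07 without WT 3, 0.07 without Het 1, 0.08 without Het 3 and 0.41 without Het 2, and the fatty acid median was 0.01 without Het 3. For 20 of 32 genes the 95% interval lay within 1 log2 unit of 0, against 41.8% of all genes.

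KO prostates had lower mean levels than Het for most of the list, again with none passing, and this comparison shares its Het libraries with the one just given. In it 7 of 32 genes lay above 0 (52% of all genes), with medians of -0.16 in the sterol arm, -0.21 among regulators and -0.24 in the fatty acid arm, beside 0.02 for all genes. Without Het 3 the count above 0 was 15 of 32, where the fatty acid median was 0.04. The sterol median was -0.35 without Het 2, -0.33 without KO 3, -0.09 without Het 3 and -0.08 without KO 1, and the fatty acid median -0.03 without Het 2, -0.09 without KO 1, -0.15 without KO 2, -0.16 without Het 1 and -0.38 without KO 3. Without WT 1, WT 3 and Het 2, 8 of 32 lay above 0, with medians of -0.34 and -0.02 in the sterol and fatty acid arms. Intervals lay within 1 log2 unit of 0 for 24 of 32 genes, against 44.5% of all genes.

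**Figure D2:**
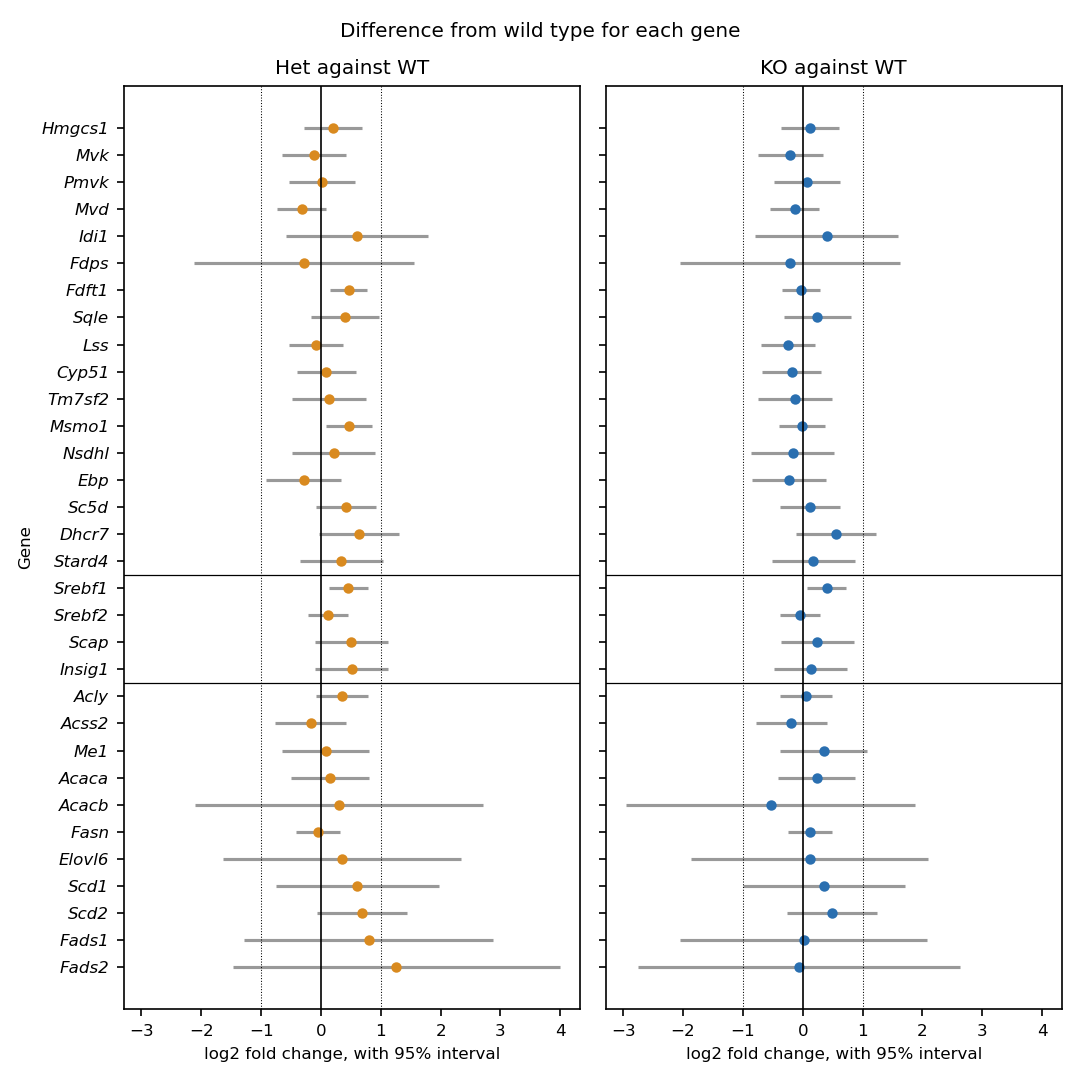
Log2 fold change of each gene against WT (points) with 95% intervals (bars), Het on the left and KO on the right, dotted lines at 1 log2 unit. Sterol-arm intervals are mostly short, those of Fads2, Fads1, Acacb and Elovl6 are wide, and 25 of 32 Het points lie above 0 (18 of 32 for KO).

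Few of the 32 genes separated the genotypes library by library. In KO against WT, 3 had every KO library above every WT library (8.14% of all genes), namely Dhcr7, Srebf1 and Scd2, and 0 had every KO library below (6.04%). In Het against WT, 4 had every Het library above every WT library (4.7%), namely Fdft1, Msmo1, Srebf1 and Acly, and 0 lay wholly below (8.59%). In KO against Het, 0 lay wholly above (7.8%) and 2, Fdft1 and Msmo1, wholly below (4.12%). Nerve and Schwann cell markers, 10 genes of which 0 were at 0 in all libraries, also lay higher in KO, with sums of 122.3 to 174.2 CPM against 74.2 to 95.1 CPM in WT. All 10 had log2 fold changes above 0 in KO against WT and 7 did not overlap, and their part in the Dhcr7, Srebf1 and Scd2 values was not tested. Dhcr7 and Acly were chosen for description after their values were seen.

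Fdft1 (ENSMUSG00000021273, chr14:63145150-63179578, minus strand, deposited coordinates on GRCm38) stood at 70.0, 70.5 and 76.5 CPM in the WT libraries, 92.3, 92.0 and 115.5 in Het and 64.6, 73.7 and 74.3 in KO. The Het libraries were all higher than the other 6, which mixed. The log2 fold change of Het against WT was 0.47 (SE 0.14, 95% interval 0.16 to 0.78, adjusted p = 0.419) and that of KO against Het was -0.50 (SE 0.14, adjusted p = 0.640). KO against WT was -0.03 (SE 0.14, interval -0.34 to 0.28), so a change of 1 log2 unit in either direction lay outside its interval. Fdft1 was also among the steadiest genes of the table, with a within-genotype SD of 0.13 on the log2 CPM scale, and 4.44% of tested genes had a smaller one. With limma voom and quality weights, its Het against WT value was 0.63 with an adjusted p of 0.0331, the only setting tried in which any of the 32 genes passed, and over all alternatives the adjusted p ran from 0.0331 to 0.922. Without WT 1, WT 3 and Het 2 the value was 0.55. Its exons overlap those of Ctsb, a lysosomal protease gene, over 774 bases, and strandedness is not given. Ctsb had a log2 fold change of 0.20 (SE 0.34) in Het against WT.

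Msmo1 (chr8:64718139-64733792, minus strand) had the same arrangement. It was at 40.0, 41.2 and 28.8 CPM in WT, 54.1, 44.2 and 53.3 in Het and 35.8, 38.5 and 34.4 in KO. Every Het library lay above all others, by a small margin for Het 2 over WT 2. The log2 fold change was 0.46 (SE 0.17, adjusted p = 0.483) in Het against WT, -0.48 (SE 0.17, adjusted p = 0.702) in KO against Het and -0.02 (SE 0.17) in KO against WT. Markers of some other cells separated the Het libraries in the opposite direction: endothelial and blood markers summed to 30.2 to 40.3 CPM in Het, 94.2 to 134.2 in WT and 80.4 to 168.4 in KO, and macrophage markers to 44.1 to 59.1, 75.3 to 111.7 and 73.2 to 128.1 CPM. None of the 6 and 5 genes of those lists was at 0 in all libraries, and their part in the Fdft1 and Msmo1 values was not tested.

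The other sterol enzymes did not follow that arrangement. Mvd stood at 26.7, 28.1 and 23.9 CPM in WT, 25.3, 18.1 and 19.5 in Het and 26.1, 23.2 and 22.5 in KO, so its Het mean was the lowest (log2 fold change -0.32, SE 0.18, adjusted p = 0.630 against WT). Ebp stood at 48.3, 60.8 and 41.8 CPM in WT, 51.5, 25.8 and 46.1 in Het and 55.7, 36.4 and 36.8 in KO. Het 2 was its lowest library and WT 2 its highest, and the genotypes overlapped. The log2 fold change of Ebp was -0.29 (SE 0.28, adjusted p = 0.799) in Het against WT and -0.23 (SE 0.28, adjusted p = 0.9996) in KO against WT. Dhcr7 stood at 20.1, 17.7 and 13.2 CPM in WT, 28.3, 16 and 35.0 in Het and 20.4, 24.9 and 29.6 in KO. KO libraries lay above WT ones, by the smallest of margins between KO 1 and WT 1, and the log2 fold change was 0.56 (SE 0.30, adjusted p = 0.9996). Hmgcs1, Mvk, Pmvk, Lss, Cyp51, Tm7sf2, Nsdhl, Sc5d, Sqle, Stard4, Idi1 and Fdps overlapped between every pair of genotypes.

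**Figure D3:**
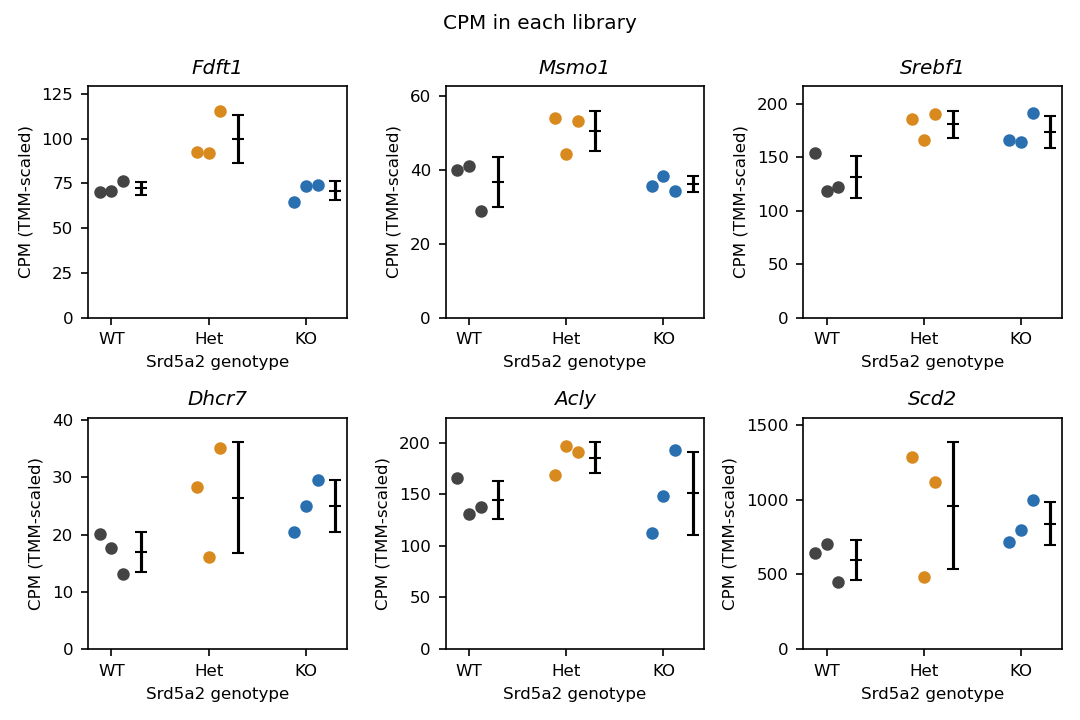
CPM of 6 genes in each library (points) by genotype, with the genotype mean and SD (n = 3) beside them. For Fdft1 and Msmo1 the 3 Het points lie above all others, and for Srebf1 all 6 mutant points lie above the 3 WT points.

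Libraries of 1 genotype differed in the sterol arm as a group. Of the 17 genes, 8 had their highest CPM in Het 3, where 12.38% of all genes tested had theirs. Conversely 7 had their lowest in WT 3 (12.56% of all genes) and 5 in Het 2 (19.61%). The arm's mean log2 CPM, set to 0 over the 9 libraries, was 0.26, -0.22 and 0.26 in the Het libraries, 0.08, 0.11 and -0.37 in WT and -0.15, -0.06 and 0.08 in KO. Thus the spread inside Het (SD 0.27) and inside WT (SD 0.27) exceeded the difference between their means of 0.10 and -0.06. The within-genotype SD of single genes was modest, with a median of 0.30 for the arm beside 0.45 for all genes.

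Among the regulators, Srebf1 and Srebf2 differed in pattern. Srebf1 (ENSMUSG00000020538, chr11:60199089-60222581, minus strand), which chiefly drives fatty acid genes, stood at 154.5, 118.4 and 122.0 CPM in WT, 185.6, 166.8 and 190.9 in Het and 166.8, 164.4 and 191.3 in KO. All 6 mutant libraries were higher than all 3 WT libraries. The log2 fold change was 0.46 (SE 0.15, interval 0.13 to 0.78, adjusted p = 0.431) in Het against WT and 0.40 (SE 0.15, interval 0.08 to 0.73, adjusted p = 0.9996) in KO against WT, and both comparisons use the same WT libraries. KO against Het was -0.06 (SE 0.15). Without WT 1, WT 3 and Het 2 the values against WT were 0.66 and 0.56. Its exons overlap those of Rai1 over 109 bases, and Rai1 had a log2 fold change of 0.53 (SE 0.19, adjusted p = 0.471) in Het against WT with overlapping libraries. Nerve and Schwann cell marker sums, given above for KO and WT, were 72.1 to 120.5 CPM in Het, and their part in the Srebf1 values was not tested.

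Srebf2, which chiefly drives sterol genes, was at 132.7 to 155.9 CPM in WT, 134.2 to 187.2 in Het and 135.8 to 146.4 in KO. Its log2 fold change was 0.12 (SE 0.15) in Het against WT and -0.04 (SE 0.15) in KO against WT. Scap and Insig1 were highest in Het 1, at 179.5 and 72.0 CPM, and their other libraries ranged from 72.9 to 124.3 and from 25.4 to 48.1 CPM. Both overlapped between genotypes, with log2 fold changes of 0.51 (SE 0.27) for each in Het against WT. Scap and Insig1 were chosen for values after these were seen.

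The fatty acid arm divided by how much its genes varied between libraries of the same genotype. Acly and Fasn varied little. Fasn (chr11:120805846-120824547, minus strand) ranged from 159.1 to 244.1 CPM over all 9 libraries, and its log2 fold changes were -0.05 (SE 0.16) in Het against WT and 0.12 (SE 0.16) in KO against WT. Acly was at 165.6, 130.8 and 138.1 CPM in WT, 168.5, 197.0 and 190.6 in Het and 112.5, 148.1 and 192.5 in KO. Het lay above WT by a thin margin between Het 1 and WT 1 (log2 fold change 0.36, SE 0.20, adjusted p = 0.611), and KO spanned almost the whole range. Acaca, Acss2 and Me1 overlapped between genotypes, with highest libraries at most 2.56 times the lowest.

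The stearoyl-CoA desaturases Scd1 and Scd2 lie near each other on chromosome 19 and were low in the same libraries. Scd2 (chr19:44293676-44306864, plus strand) stood at 642.9, 700.7 and 447.6 CPM in WT, 1283, 481.2 and 1115 in Het and 716.1, 799.5 and 999.7 in KO. WT 3 and Het 2 were its lowest libraries, and KO lay above WT by a small step between KO 1 and WT 2. The log2 fold change was 0.68 (SE 0.33, adjusted p = 0.578) in Het against WT and 0.49 (SE 0.33, adjusted p = 0.9996) in KO against WT. The latter was 0.26 without WT 1, WT 3 and Het 2, which leaves only WT 2, the highest WT library for Scd2.

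Scd1 (chr19:44394451-44407709, minus strand) stood at 203.6, 206.7 and 80.5 CPM in WT, 340.3, 67.4 and 340.0 in Het and 166.5, 221.4 and 240.1 in KO. Het held both its highest and its lowest values, with a log2 fold change of 0.61 (SE 0.59, adjusted p = 0.805) against WT, and KO against WT was 0.36 (SE 0.59). Adipocyte markers, 10 genes of which 0 were at 0 in all libraries, were also lowest in WT 3 and Het 2, with sums of 77.4 and 172.0 CPM against 230.5 to 636.5 CPM elsewhere. Their defining genes Adipoq and Plin1 were at 0.518 and 0.467 CPM in WT 3. Luminal epithelial markers, 10 genes, also had their lowest sums in those libraries, 14750 and 4835 CPM against 31080 to 178100 CPM elsewhere. Sbp and Spink1 make up much of that sum, while Krt8 ranged only from 428.4 to 548.7 CPM over the 9 libraries, and the mean log2 level of the list was lower in WT 1 (-2.07) than in WT 3 (-1.21). The part of either in the Scd1 and Scd2 values was not tested.

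Fads2, Fads1, Acacb and Elovl6 varied most between libraries of the same genotype. Fads2 (chr19:10064164-10101503, minus strand) stood at 58.2, 16.2 and 71.3 CPM in WT, 4.11, 79.8 and 264.5 in Het and 29.4, 49.0 and 61.3 in KO. Het 1, with 76 counts, and Het 3 were the extremes, 64.4-fold apart within 1 genotype. The log2 fold change of Het against WT was 1.26 (SE 1.17, interval -1.47 to 3.99, adjusted p = 0.795), and it turned to -0.21 without Het 3. KO against WT was -0.06 (SE 1.15), and 1.52 without WT 1, WT 3 and Het 2, which leaves only WT 2, the lowest WT library for Fads2. The within-genotype SD of Fads2 was 1.92 on the log2 CPM scale, and 97.1% of tested genes had a smaller one.

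Fads1, Acacb and Elovl6 shared the low value in Het 1 (these 3 were chosen after their values were seen). Fads1 stood at 63.4, 28.6 and 74.9 CPM in WT, 11.4, 59.8 and 219.5 in Het and 40.2, 60.4 and 67.8 in KO. Acacb, the carboxylase isoform tied to mitochondrial fatty acid oxidation, stood at 33.1, 17.9 and 82.6 CPM in WT, 3.62, 112.5 and 48.5 in Het and 18.4, 40.3 and 33.4 in KO. Elovl6 stood at 20.1, 12.2 and 46.2 CPM in WT, 4.11, 61.0 and 35.2 in Het and 19.6, 23.7 and 41.6 in KO. All 3 were lowest in Het 1 and next lowest in WT 2, while the highest library was Het 3 for Fads1 and Het 2 for the other 2. In all, 6 of the 11 fatty acid genes had their lowest CPM in Het 1, as did 19.82% of all genes.

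**Figure D4:**
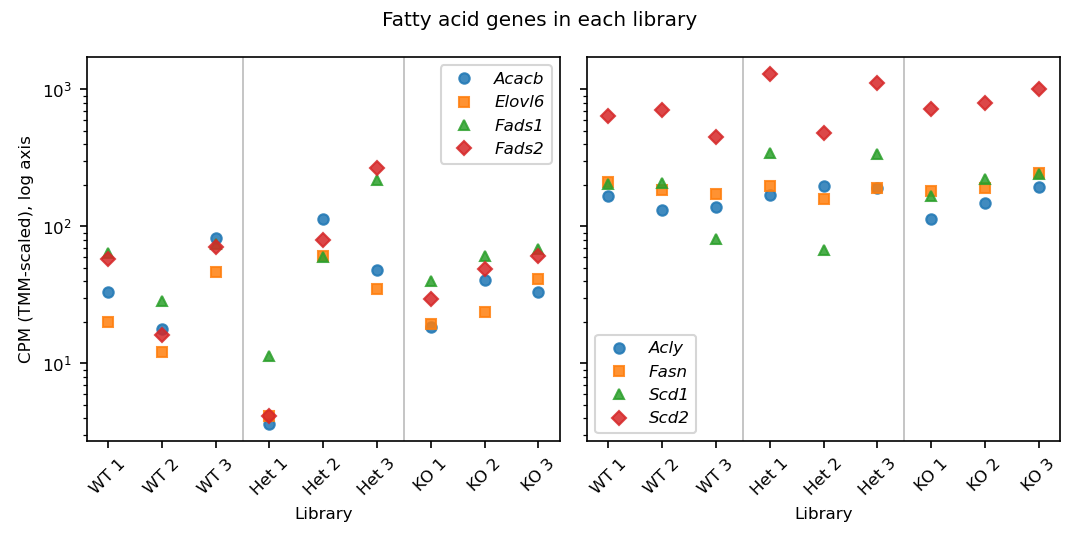
CPM on a log axis in each of the 9 libraries, with Acacb, Elovl6, Fads1 and Fads2 on the left and Acly, Fasn, Scd1 and Scd2 on the right. The left-hand genes drop together in Het 1 (3.62 to 11.4 CPM), Scd1 and Scd2 are low in WT 3 and Het 2, and Acly and Fasn stay between 112.5 and 244.1 CPM.

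Because these genes moved apart, ratios of FPKM between them differed between libraries of the same genotype. Scd1 over Fads2 was 1.09, 3.97 and 0.352 in WT, 25.8, 0.263 and 0.401 in Het and 1.76, 1.41 and 1.22 in KO. Acaca over Acacb was 0.476, 0.917 and 0.123 in WT, 2.99, 0.118 and 0.474 in Het and 0.876, 0.443 and 0.472 in KO. Het 1 had the highest value of both ratios, and the KO libraries lay close together. Seminal vesicle markers, 7 genes, had their lowest sums in Het 1 and WT 2 (6003 and 28360 CPM), the libraries lowest in Fads1, Fads2, Acacb and Elovl6, and 66700 to 333200 CPM elsewhere. Svs2 and Svs5 dominate that sum, and the mean log2 level of the list was higher in WT 2 (0.10) than in WT 1 (-2.84), Het 2 (-0.29) and Het 3 (-2.92), with Het 1 lowest (-7.03). Fibroblast and smooth muscle markers, 8 genes, were also lowest in Het 1, at 1332 CPM against 3066 to 7044 CPM elsewhere. So were the sums of basal epithelial (136.5 CPM against 181.2 to 580.6), skeletal muscle (141.4 against 342.3 to 5263) and nerve and Schwann cell markers (72.1 against 74.2 to 174.2). The luminal epithelial sum was highest in Het 1, at 178100 CPM. Adipocyte, endothelial and blood, and macrophage sums were lowest in other libraries. The part of these cells or tissues in the fatty acid values was not tested.

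**Figure D5:**
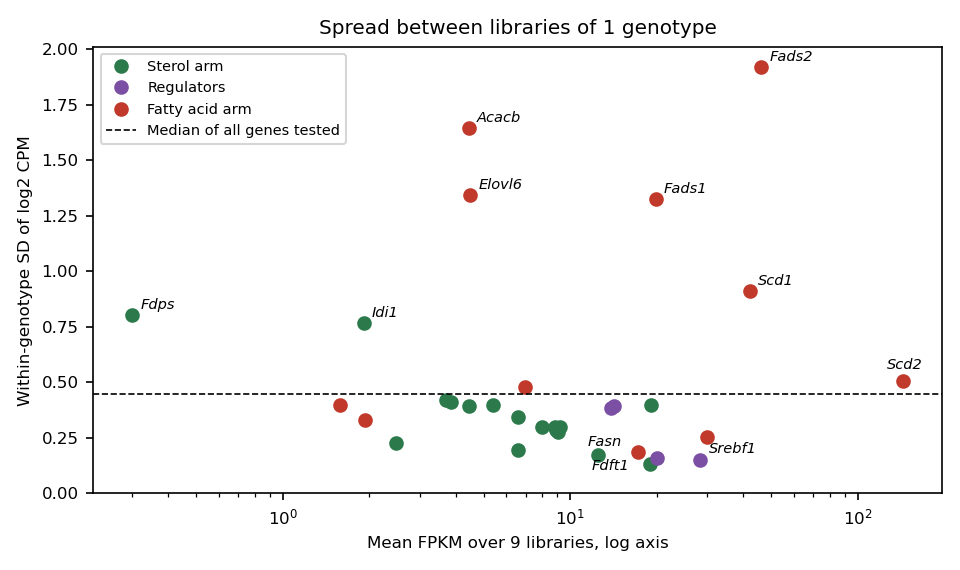
Within-genotype SD of log2 CPM of each of the 32 genes (vertical axis) against its mean FPKM over 9 libraries (log axis), with arms in colour and a dashed line at the median of all genes tested, 0.45. Fads2, Acacb, Elovl6 and Fads1 stand at 1.92, 1.65, 1.34 and 1.33, and Fdft1 at 0.13.

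Other genes of the same pathways, in 3 further lists, did not pass the test in any comparison either, with 0 called of 11, 11 and 18 tested. Of the 11 genes of sterol synthesis and uptake, 9 lay above 0 in Het against WT and 8 in KO against WT. Npc1, which exports cholesterol from lysosomes, was at 15.9, 17.7 and 15.1 CPM in WT, 22.2, 18.6 and 28.0 in Het and 13.0, 16.2 and 21.2 in KO. Its Het libraries lay above the WT ones and overlapped KO, with a log2 fold change of 0.50 (SE 0.24, adjusted p = 0.576) in Het against WT.

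Of the 12 genes of sterol sensing and efflux, 11 were tested, and Ch25h, with 64 counts, was not. Mylip, a ubiquitin ligase induced by liver X receptors, had a log2 fold change of 0.71 (SE 0.24, adjusted p = 0.441) in Het against WT. Abca1, the cholesterol exporter, was at 27.4, 18.2 and 12.8 CPM in WT, 29.2, 27.4 and 22.7 in Het and 33.1, 27.8 and 38.4 in KO. KO libraries lay above WT ones, narrowly for KO 2 over WT 1 (0.77, SE 0.27, adjusted p = 0.9996). Nr1h2, which encodes a liver X receptor, had -0.38 (SE 0.15, adjusted p = 0.501) in Het against WT.

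Of the 18 further genes of fatty acid and glycerolipid synthesis, Hsd17b12, a reductase of fatty acid elongation, was at 34.2, 34.1 and 34.1 CPM in WT, 43.8, 45.1 and 50.8 in Het and 38.7, 33.9 and 37.6 in KO. Its Het libraries lay above all others, as for Fdft1 (log2 fold change 0.45, SE 0.14, adjusted p = 0.419 against WT, and -0.34, SE 0.14, in KO against Het). Acsl3, an acyl-CoA synthetase, went the other way at -1.17 (SE 0.37, adjusted p = 0.431) in Het against WT and -0.89 (SE 0.36) in KO against WT. Gpam, which starts glycerolipid assembly, had 0.88 (SE 0.40) in Het against WT.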

How the data were processed

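Bulk RNA-seq of mouse prostate gave 9 libraries, 3 per genotype, grouped by the names in the sample labels. The 32 genes and all lists were chosen with earlier results of these data known. The authors deposited whole-number read counts for each gene, without normalisation, and FPKM values per library, which carry the median-of-ratios scaling: a ratio of 1 to those factors held in all 9 libraries. Per the submitters' processing notes, reads were placed on GRCm38 (mm10). No source used here names the aligner, the counting program or the strandedness. A table of FPKM means per genotype was not used.

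The test on counts was run in edgeR 4.0.16 under R 4.3.3 (TMM, filterByExpr, robust quasi-likelihood fit of all 9 libraries, genotype as the only factor), with Benjamini-Hochberg adjustment over 16836 genes and a threshold of 0.05. The fit was tested on simulated data. Standard errors were derived from the F statistic (log2 fold change over its square root), intervals are at 95%, and spread uses log2 CPM with a prior count of 2. Total counts of 16233392 to 24017791 set the counting precision. Values per library and tests were given for Fdft1, Srebf1, the 3 genes of highest mean FPKM per arm, genes with an unadjusted p under 0.05, and, per further list, the 3 genes of smallest p. Some results that this rule names are left out. Alternatives were 3 other normalisations, 2 other filters, DESeq2 1.42.0, limma 3.58.1 voom with and without quality weights, fits of 2 genotypes, and fits without single libraries or without WT 1, WT 3 and Het 2.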

Additional observations from a re-analysis of the deposited data

How the results depend on the processing

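No paired analysis was possible because the labels give no replicate numbers that genotypes share. The number of genes called over the whole table depended most on the setting. In KO against WT it was 14 with DESeq2, 1 with only the 2 genotypes compared, and 0 to 1 when single libraries were left out. In Het against WT it was 205 with DESeq2, 699 with limma voom and quality weights, 1 without WT 1, WT 3 and Het 2, and 0 to 258 leaving out single libraries, with 258 without Het 1. In KO against Het it was 169 with DESeq2, 2 with no filter, 1 without WT 1, WT 3 and Het 2, and 0 to 18 leaving out single libraries, with 18 without Het 1. Of the 32 genes, 1 was called in Het against WT with voom and quality weights (Fdft1, log2 fold change 0.63), and 0 under the other alternatives. Differences changed sign in several genes, near 0 and also where the libraries of a genotype were far apart. For KO against WT, Fdft1 was 0.0074 with the 1 CPM filter, 0.0144 with quality weights and 0.0090 without WT 1, WT 3 and Het 2 (single libraries left out: -0.0693 to 0.0324). Msmo1 was 0.0193 with the 1 CPM filter and 0.0010 with quality weights (-0.17 to 0.12). Fads2 was 0.16 with voom, 0.44 with quality weights and 1.52 without WT 1, WT 3 and Het 2 (-0.43 to 0.33). For Het against WT, Fads2 ran from -0.21 to 1.82 over single libraries left out. For KO against Het, Ebp was -0.19 with quality weights and -0.18 without WT 1, WT 3 and Het 2 (-0.20 to 0.26), Scd1 was 0.0637 with voom (-0.71 to 0.0431), Scd2 ran from -0.53 to 0.0751 and Fads2 from -1.88 to 0.15. Over all alternatives, Fads1 ran from -0.64 to 2.01 in Het against WT and from -1.43 to 0.66 in KO against Het, Acacb from -0.81 to 1.09 and from -1.39 to 0.25, and Elovl6 from -0.44 to 1.03 and from -0.76 to 0.54, and in KO against WT they ran from -0.26 to 0.97, -0.87 to 0.78 and -0.28 to 1.21. The cause of these differences was not tested. The fatty acid median of KO against Het was 0.05 with voom, under which the median of all genes was 0.11 in that comparison. Low counts limit Fdps, at 226 in all libraries.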
